A study of Bos taurus with 12 samples.

Results

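Of the 33714 genes in the mRNA table of bovine intramuscular preadipocytes, 8 are described here. They are the chemokines CXCL12, CXCL14, CXCL8, CCL2 and CX3CL1, the atypical chemokine receptor ACKR3, the macrophage growth factor CSF1 and the long pentraxin PTX3. The genes were chosen by name from their FPKM over the 4 days in these same libraries, so their levels and changes are given as a description, without a test. FPKM scales fragments by transcript length and by the mapped fragments of the library, so levels can be set side by side between genes. All 8 were found, with a mean of at least 0.1 FPKM over the 12 libraries. On every day 6 of them lay at or above that level, whereas CX3CL1 and CXCL14 passed it only through the days on which they were high. Their working name placed these genes in preadipocytes. Most were measured there, CSF1 and ACKR3 at a high level, but the uninduced cells had the lowest day mean for 7 of the 8, with ACKR3 overlapping 6 d and 9 d, and CXCL8 had its lowest at 6 d.

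The cells came from minced longissimus dorsi muscle of newborn Qinchuan cattle. Their RNA was sequenced uninduced (0 d) or on day 3, 6 or 9 of differentiation. Each day has 3 libraries, which makes 12. At 90% confluence, the cells of the 3, 6 and 9 d groups received IBMX at 0.5 mM (a phosphodiesterase inhibitor that raises cAMP), the glucocorticoid dexamethasone and insulin for 48 hours, followed by insulin alone, in medium with 15% serum. The study set each later day against 0 d to find RNAs that change as fat cells form. The sample labels and the study's methods differ in the doses of dexamethasone and insulin, which are therefore not given. The study calls the 3 libraries of a day biological replicates and speaks of a shared batch of cells for all days, but whether they came from separate cultures or animals is not given in the sources used here, so p-values measure only the spread between these libraries, which may be technical. The summed FPKM of a library ranged from 1221194 to 1371794.

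Chemokines are small secreted proteins that bind to heparan sulphate on cell surfaces and in matrix and guide cells that carry their receptors. Homeostatic members such as CXCL12 are made by stromal cells at rest, while inflammatory members such as CXCL8 and CCL2 are made on stimulation and draw neutrophils and monocytes into tissue, fat included. PTX3 is a soluble pattern recognition protein of the innate immune system that also holds hyaluronan matrix together, and CSF1 keeps macrophages alive and dividing.

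Most of the 8 genes stood higher on every day after induction than in uninduced cells, and they fell into distinct time courses. CXCL12, CXCL14, CSF1 and ACKR3 had their highest day mean at 3 d, the first day sampled after induction, as did CXCL8. No uninduced cells were sequenced at 3, 6 or 9 d, so induction and time in culture cannot be told apart. PTX3 was about as high at 6 d as at 3 d, CCL2 was highest at 6 d, and CX3CL1 was highest at 9 d. Among the 15402 mRNAs tested, CSF1 ranked 484 by level at 0 d and 121 at 3 d. PTX3 went from rank 5969 at 0 d to 114 at 3 d and 125 at 6 d, and CXCL12 from 6095 at 0 d to 172 at 3 d. CX3CL1 never came higher than rank 10798, which it held at 9 d.

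**Figure D1:**
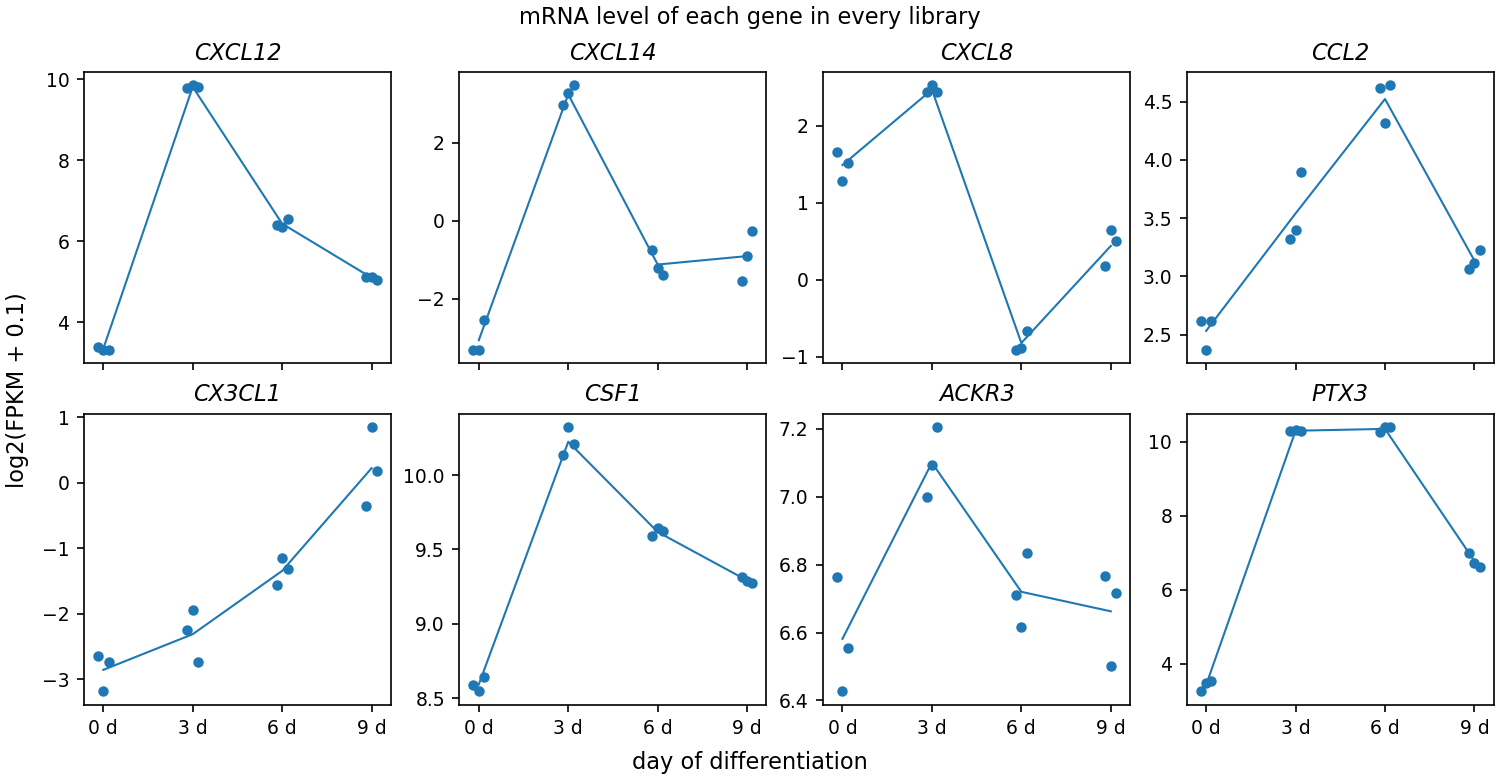
Level of each of the 8 genes as log2(FPKM + 0.1) in every library (points, 3 for each day) against the day of differentiation, with lines through the day means; each panel has its own vertical scale. CXCL12, CXCL14, CXCL8, CSF1 and ACKR3 peaked at 3 d, CCL2 at 6 d and CX3CL1 at 9 d, while the PTX3 points of 3 d and 6 d overlapped.

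A call means here an absolute log2 fold change over 1 on the log2(FPKM + 0.1) scale and an adjusted p under 0.05 in limma over all mRNAs tested; the 8 genes were not counted by it. At 3 d, 7 of the 8 genes had all 3 libraries above the 3 of 0 d, and CX3CL1 overlapped. Of all mRNAs tested, 59.3% did not overlap between these days, 8.06% were called higher and 15.2% were called lower. At 6 d, 6 of the genes lay above 0 d, CXCL8 lay below it and ACKR3 overlapped, beside 47.9% of all mRNAs without overlap, 3.39% called higher and 7.97% called lower. The comparison of 9 d with 0 d gave the same split, with ACKR3 again overlapping, beside 49.9%, 3.41% and 7.47% of all mRNAs. From 3 d to 6 d, CCL2 and CX3CL1 were higher without overlap, 5 genes were lower and PTX3 overlapped, beside 58.6%, 9.85% and 9.23% of all mRNAs. From 6 d to 9 d, CXCL8 and CX3CL1 were higher, 4 genes were lower and CXCL14 and ACKR3 overlapped, beside 39.0%, 2.55% and 1.89%. The choice of the genes used these contrasts, so nothing is read from the counts, and the comparisons with 0 d share its 3 libraries.

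The median log2 fold change of all mRNAs was -0.15 at 6 d and -0.19 at 9 d against 0 d, and rescaling libraries by their median ratio moved it by 0.16 and 0.19. With that rescaling, the share of higher among all called mRNAs went from 29.8% to 40.8% at 6 d and from 31.3% to 46.8% at 9 d, and none of the changes of the 8 genes turned direction.

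**Figure D2:**
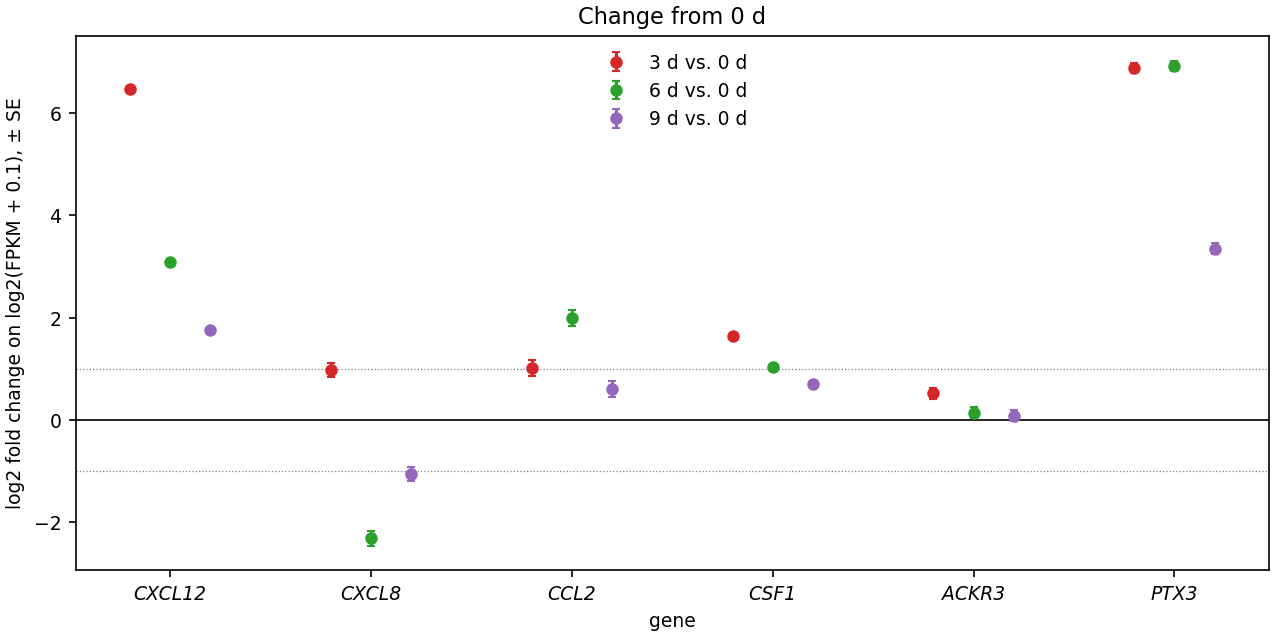
Difference from 0 d, for the 6 genes at or above 0.1 FPKM on every day, on the log2(FPKM + 0.1) scale at 3, 6 and 9 d, with bars of 1 SE from the fit over all 12 libraries; dotted lines mark an absolute value of 1. PTX3 and CXCL12 had differences above 6 at 3 d and CXCL8 negative values at 6 d and 9 d.

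CXCL12 (NCBI Gene 613811), the ligand of CXCR4 that holds blood stem cells and lymphocytes in their niches, had the widest swing among those of the 5 chemokines chosen that were measured well above 0 on every day. Its 3 libraries stood at 10.5, 9.97 and 9.88 FPKM at 0 d, 882, 923 and 898 at 3 d, 84.6, 82.3 and 93.5 at 6 d, then 34.9, 34.7 and 33.2 at 9 d. No day overlapped another, in the order 3, 6, 9 and 0 d, and even at 9 d every library lay above those of uninduced cells. The day means were 10.1 ± 0.318 at 0 d and 901 ± 20.7 FPKM at 3 d (SD, n = 3), a ratio of 89.2. On the log2 scale the differences from 0 d were 6.46 at 3 d, 3.09 at 6 d and 1.75 at 9 d, each with an SE of 0.06. These are bulk libraries, in which fewer cells of a type and less RNA per cell cannot be told apart.

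CXCL14 (NCBI Gene 511771), a chemokine of epithelia and fat whose receptor is debated, was present at an appreciable level on a single day. It was listed at 0, 0 and 0.07 FPKM at 0 d, and read 7.76, 9.66 and 11.0 at 3 d, 0.49, 0.33 and 0.28 at 6 d, then 0.24, 0.43 and 0.74 at 9 d. The 3 d libraries stood far above all others, and those of 6 d and 9 d overlapped. Since 0 d is at or next to 0, no fold change against it is given. From 3 d to 6 d the log2 difference was -4.37 (SE 0.34). The 6 d levels are near the 0.1 FPKM added before taking logarithms, so the size of this difference depends on it.

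ACKR3 (NCBI Gene 509585) encodes the receptor that takes up and degrades CXCL12 without classical G protein signalling. Its libraries read 109, 85.9 and 93.9 FPKM at 0 d, 128, 137 and 148 at 3 d, 105, 98.1 and 114 at 6 d, then 109, 90.6 and 105 at 9 d. The libraries of 3 d lay above those of every other day, while 0, 6 and 9 d overlapped each other and did not differ beyond their spread. At 3 d the difference from 0 d was 0.52 on the log2 scale (SE 0.11), the ratio of day means being 1.43, so this gene varied least of the 8. In FPKM it exceeded its ligand at 0, 6 and 9 d, and at 3 d CXCL12 exceeded it.

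The other receptor of CXCL12 was scarce. CXCR4, which carries its chemotactic signal, read 0.51, 0.43 and 0.41 FPKM at 0 d, 0.45, 0.50 and 0.49 at 3 d, 0.13, 0.07 and 0.08 at 6 d, then 0.38, 0.32 and 0.38 at 9 d. The 6 d libraries were the lowest and overlapped no other day. On the log2 scale its difference was -1.52 from 0 d to 6 d and 1.26 from 6 d to 9 d (SE 0.14). Its 6 d mean lay under 0.1 FPKM, and it passed the filter through its other days, so its calls with 6 d are no more than a description.

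Of 24 other chemokine and CSF1 receptors, a list without ACKR3, 9 reached a mean of 0.1 FPKM, and the highest value in any library was 1.99 FPKM. The receptors of CXCL8 were nearly absent, with no library above 0.04 FPKM for CXCR1 or CXCR2, and the CCL2 receptor CCR2 was listed at 0 in all libraries. CX3CR1, the receptor of CX3CL1, reached 0.05 FPKM at most. CCR8, a receptor of skin-homing T cells and the most abundant of the group, read 1.99, 0.75 and 1.70 FPKM at 0 d and 0.22, 0.06 and 0.23 at 3 d, without overlap. It fell by 2.52 (SE 0.38, limma adjusted p = 0.0003) and rose again by 1.62 from 3 d to 6 d. CCR7, which guides cells to lymph nodes, read 0, 0.43 and 0.23 FPKM at 0 d and 0.84, 0.96 and 1.55 at 3 d and was called higher (log2 fold change 2.18, limma adjusted p = 0.021). Without replicate 1 of 0 d or replicate 3 of 3 d its adjusted p was 0.0728 or 0.0685, so the call rests on each of these libraries, and it was also lost with a pseudocount of 0.01.

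Over the 9 receptors tested, limma called CCR7 and CSF1R higher and CCR8 lower at 3 d, and at 6 d CXCR4 lower, all against 0 d. At 9 d against 0 d it called 0 of the 9, with 1 at an unadjusted p under 0.05. From 3 d to 6 d CCR8 was called higher and CCR7, CXCR4 and CSF1R lower, and from 6 d to 9 d CXCR4 and ACKR2, a scavenger of inflammatory CC chemokines, were called higher. ACKR2 read 0.05, 0.08 and 0.07 FPKM at 6 d and 0.25, 0.26 and 0.26 at 9 d, so it too lay under the filter at 6 d, and the calls of both genes there are a description. The median log2 fold changes of the 9 were 0.05, -0.41 and -0.15 at 3, 6 and 9 d against 0 d, beside -0.06, -0.15 and -0.19 for all mRNAs. With a pseudocount of 1 in place of 0.1 the calls of CXCR4, CCR7, CSF1R and ACKR2 and that of CCR8 at 6 d against 3 d had absolute log2 fold changes under 1.

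**Figure D3:**
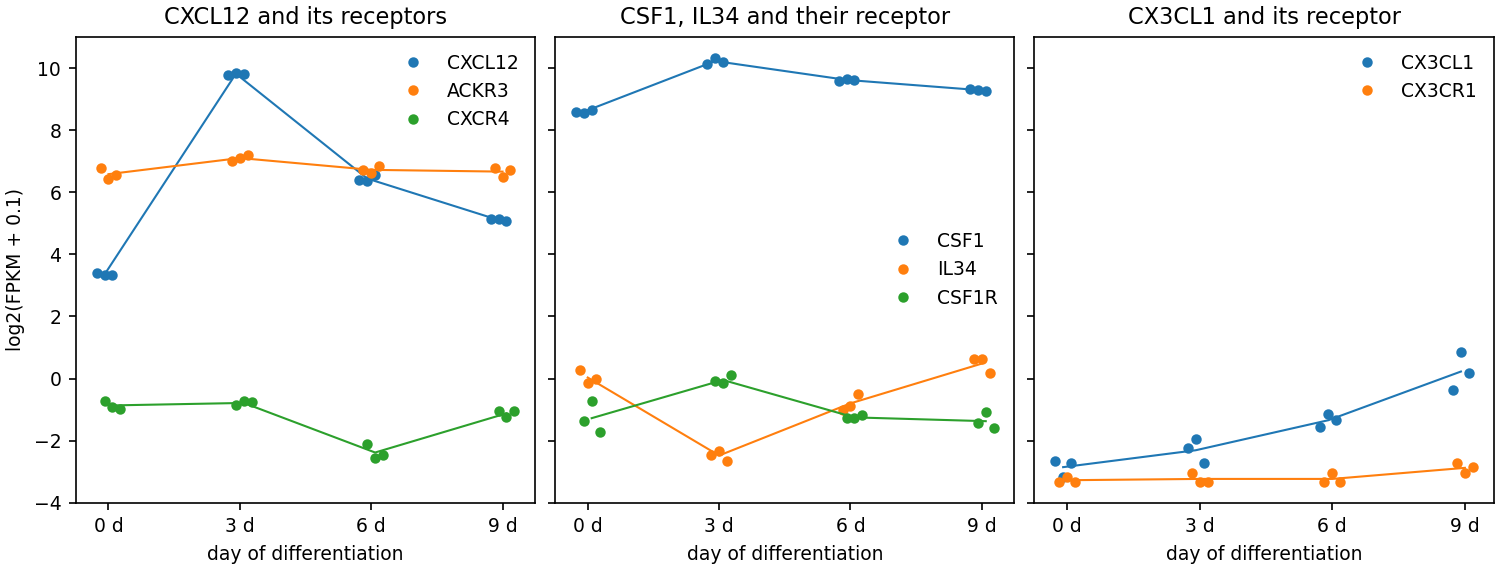
Levels as log2(FPKM + 0.1) in every library (points) against the day of differentiation, with lines through the day means, for CXCL12 with its receptors ACKR3 and CXCR4, for CSF1 and IL34 with their receptor CSF1R, and for CX3CL1 with CX3CR1. CXCR4, CSF1R and CX3CR1 lay under 1 FPKM in all 12 libraries, while ACKR3 lay between 85.9 and 148 FPKM.

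CXCL8 (NCBI Gene 280828), the chief attractant of neutrophils in cattle and people, was the member that lay below its uninduced level later in the course. It read 3.06, 2.34 and 2.77 FPKM at 0 d, 5.33, 5.65 and 5.34 at 3 d, 0.43, 0.44 and 0.53 at 6 d, then 1.03, 1.46 and 1.31 at 9 d. No day overlapped another, in the order 3, 0, 9 and 6 d, with a ratio of 11.7 between the highest and lowest day means. The log2 differences from 0 d were 0.98 at 3 d, -2.31 at 6 d and -1.05 at 9 d (SE 0.14). With a pseudocount of 1 that at 3 d was 0.79, and those at the lower levels of 6 d and 9 d also shrink.

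CXCL5, GRO1 and CXCL3, which draw neutrophils as well, also had their highest day mean at 3 d and their lowest at 6 d, but their relative CXCL2 was highest at 0 d. CXCL5, which lies 2 genes from CXCL8 in the RefSeq order of assembly ARS-UCD2.0, was the most abundant of the other chemokine ligands, with 87.7, 74.7 and 76.0 FPKM at 0 d, 159, 136 and 152 at 3 d, 10.5, 8.02 and 10.8 at 6 d, then 46.8, 61.3 and 53.3 at 9 d. No day overlapped another. CXCL5 fell by 3.92 from 3 d to 6 d (SE 0.14, limma adjusted p = 9.5e-09) and rose by 2.45 from 6 d to 9 d (adjusted p = 1.9e-06); its log2 fold change of 0.91 at 3 d against 0 d was under the threshold.

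GRO1, a melanoma growth-stimulating chemokine, read 1.77, 1.70 and 1.24 FPKM at 0 d, 10.8, 9.10 and 9.43 at 3 d, 0.29, 0.20 and 0.25 at 6 d, then 1.50, 1.55 and 1.78 at 9 d. Its libraries of 0 d and 9 d overlapped, with 3 d above and 6 d below both. It rose by 2.58 at 3 d (SE 0.15, limma adjusted p = 3.0e-07), fell by 4.84 from 3 d to 6 d (adjusted p = 4.8e-09) and rose by 2.31 from 6 d to 9 d (adjusted p = 6.0e-06). CXCL3 had day means of 2.54, 9.35, 0.89 and 2.73 FPKM at 0, 3, 6 and 9 d and was called in the same comparisons as GRO1, with log2 fold changes of 1.84, -1.42, -3.27 and 1.52. CXCL2 had a different course, with 1.55, 1.40 and 1.41 FPKM at 0 d and 0.17, 0.16 and 0.18 at 3 d, a fall by 2.52 (limma adjusted p = 1.3e-07). GRO1, CXCL2 and CXCL3 are close paralogs, and how reads shared between them were split is not given in the sources used here, so their separate values are uncertain.

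**Figure D4:**
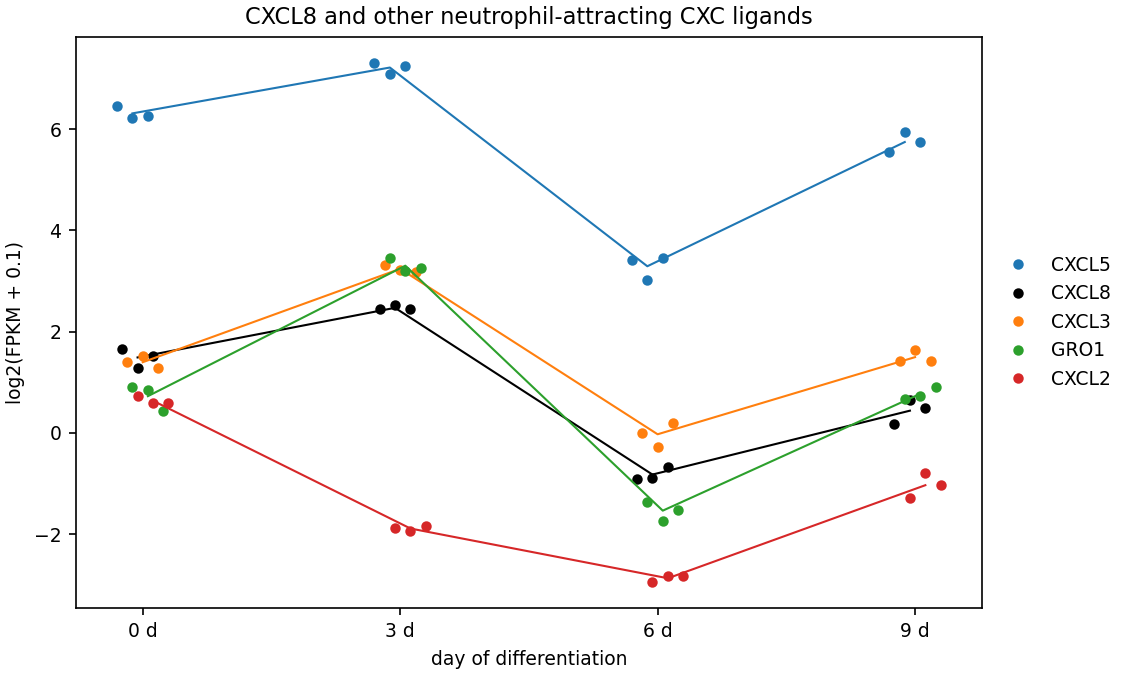
Levels of CXCL8 and of the other CXC ligands CXCL5, CXCL3, GRO1 and CXCL2 as log2(FPKM + 0.1) in every library (points) against the day of differentiation, with lines through the day means. CXCL5, CXCL8, CXCL3 and GRO1 were highest at 3 d and lowest at 6 d, and CXCL2 was highest at 0 d.

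Of the 36 other chemokine ligands listed, 32 were found by name, 11 of them at 0 in all libraries, and 12 could be tested. At 3 d against 0 d limma called 4 higher (GRO1, CCL19, CXCL3 and CXCL13) and 3 lower (PF4, CXCL2 and CCL26). It called CCL5 higher and 5 genes lower at 6 d, and CCL5 and CXCL13 higher and PF4 and CXCL2 lower at 9 d. Between 3 d and 6 d 3 were called higher (CCL26, CCL5 and CXCL16) and 4 lower. From 6 d to 9 d the 4 called genes, CXCL5, GRO1, CXCL2 and CXCL3, were all higher. The median log2 fold changes of the list were 0.90, -0.17 and 0.15 at 3, 6 and 9 d against 0 d.

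Several of these ligands were at trace levels. CCL5, PF4, CCL26, CCL19 and CXCL13 had a day mean under 0.1 FPKM and passed the filter through the days on which they were high, so their calls are no more than a description. CXCL2 lay under it at 6 d, with a day mean of 0.0367 FPKM, so its calls with 6 d are a description too. CCL5, which draws T cells, was listed at 0 in all 3 d libraries and read 0.37, 0.44 and 0.53 FPKM at 9 d, above 0, 0 and 0.08 at 0 d. PF4, a platelet chemokine, read 1.02, 0.29 and 0.38 FPKM at 0 d and 0 in all 3 d libraries, and without replicate 1 of 0 d it no longer passed the filter. CXCL16, a ligand of CXCR6, had day means of 0.847 FPKM at 3 d and 2.41 at 6 d and rose by 1.41 between them (limma adjusted p = 2.2e-06). CCL26, an eotaxin, was at 0 in all 3 d libraries and read 0.36, 0.22 and 0.35 FPKM at 6 d. CCL27, a skin chemokine, fell by 1.59 from 3 d to 6 d (limma adjusted p = 0.012). CCL19 and CXCL13, attractants of lymphoid tissue, were at 0 in the 0 d libraries and had adjusted p values of 0.047 and 0.034 in limma at 3 d. CCL19 was also at 0 in replicate 1 of 3 d, so that its days overlapped. The call of CCL19 was lost, with adjusted p from 0.0917 to 0.164, on leaving out any library of 0 d or replicate 2 or 3 of 3 d, and it was also lost with a pseudocount of 0.01, without the filter and in a fit of the 6 libraries alone. That of CXCL13 was lost on leaving out any of the 6 libraries (0.0543 to 0.110), and its call at 9 d (adjusted p = 0.027) on leaving out any of 0 d or replicate 2 or 3 of 9 d (0.0611 to 0.0893). With a pseudocount of 1 the calls of CCL5, PF4, CCL26, CCL27, CCL19, CXCL13 and CXCL16 were lost. So were those of CXCL3 at 6 d against 0 d and at 9 d against 6 d, and of CXCL2 at 9 d against 0 d and against 6 d.

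CCL2 (NCBI Gene 281043), the main attractant of monocytes, peaked later than CXCL12. Its libraries read 6.03, 5.06 and 6.02 FPKM at 0 d, 9.90, 10.5 and 14.8 at 3 d, 24.4, 19.8 and 24.8 at 6 d, then 8.28, 8.55 and 9.26 at 9 d. Every library of 6 d stood above every other, and no day overlapped another, in the order 6, 3, 9 and 0 d. Replicate 3 of 3 d stood above its fellows of that day. On the log2 scale the differences from 0 d were 1.01 at 3 d, 1.99 at 6 d and 0.60 at 9 d (SE 0.15).

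CX3CL1 (NCBI Gene 517354), a membrane-bound chemokine that is shed by ADAM10 and ADAM17, was the rarest of the 8. It read 0.06, 0.01 and 0.05 FPKM at 0 d, 0.11, 0.16 and 0.05 at 3 d, 0.24, 0.35 and 0.30 at 6 d, then 0.68, 1.71 and 1.03 at 9 d. The libraries of 0 d and 3 d overlapped, those of 6 d lay above both, and those of 9 d lay above all others with the widest spread. As for CXCL14, no fold change against 0 d is given. Its log2 difference from 6 d to 9 d was 1.57 (SE 0.31). Because the 6 d levels are near the pseudocount of 0.1, the size of this difference depends on it.

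CSF1 (NCBI Gene 281094), the growth factor that macrophages need to survive, was abundant throughout. It read 385, 373 and 399.8 FPKM at 0 d, 1126, 1282 and 1183 at 3 d, 769.5, 798 and 788 at 6 d, then 636, 625 and 617 at 9 d. No day overlapped another, in the order 3, 6, 9 and 0 d, and every library after induction lay above those of 0 d. The ratio of the 3 d mean to that of 0 d was 3.10. The log2 differences from 0 d were 1.63, 1.03 and 0.70 at 3, 6 and 9 d (SE 0.05).

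IL34, the other ligand of the CSF1 receptor, lay at a far lower level and was lowest at 3 d, the day on which CSF1 was highest. It read 1.11, 0.80 and 0.88 FPKM at 0 d, 0.08, 0.10 and 0.06 at 3 d, 0.40, 0.44 and 0.60 at 6 d, then 1.44, 1.46 and 1.03 at 9 d. All libraries of 3 d lay below all others. Its log2 difference was -2.51 from 0 d to 3 d and 1.68 from 3 d to 6 d (SE 0.19), given as a description, since its 3 d mean lay under the filter of 0.1 FPKM. IL34 rose by 1.28 from 6 d to 9 d (limma adjusted p = 0.00097). The receptor CSF1R read 0.29, 0.50 and 0.20 FPKM at 0 d and 0.84, 0.80 and 0.97 at 3 d, without overlap, and rose by 1.23 (SE 0.23, limma adjusted p = 0.0013). Without replicate 3 of 0 d its log2 fold change was 0.9998, just under the threshold. With a pseudocount of 1 the log2 fold changes of IL34 and CSF1R at 3 d were -0.83 and 0.50, and the later calls of IL34 were lost too.

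Of the 5 other colony-stimulating and stem cell factors, 3 could be tested, and besides IL34 limma called KITLG, the stem cell factor that acts on KIT. KITLG read 1.90, 2.04 and 1.93 FPKM at 0 d, 2.81, 3.66 and 10.6 at 3 d, 12.3, 12.7 and 12.7 at 6 d, then 6.10, 26.2 and 28.4 at 9 d. Every library of 6 d and 9 d lay above those of 0 d, and replicate 3 of 3 d and replicate 1 of 9 d stood apart from their days. It rose by 2.62 at 6 d (SE 0.59, limma adjusted p = 0.0063) and by 3.02 at 9 d (adjusted p = 0.0027) against 0 d. FLT3LG, the growth factor of dendritic cells, had day means of 0.383 FPKM at 0 d and 0.143 at 3 d, without overlap, and its log2 fold change of -0.99 (limma adjusted p = 4.2e-05) was just short of the threshold. As a list the 3 had median log2 fold changes of -0.99, -0.44 and 0.45 at the later days.

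The summed level of macrophage and monocyte markers was highest at 3 d, the day on which CXCL12, CXCL14 and CSF1 were high, but the single markers were split. Of the 11 on that list, the leukocyte marker PTPRC and the myeloid genes ITGAM and TYROBP were listed at 0 in all libraries, and 6 reached a mean of 0.1 FPKM. The summed level of the list was 4.07, 3.78 and 3.56 FPKM at 0 d, 208, 118 and 89.3 at 3 d, 32.8, 31.5 and 17.7 at 6 d, then 8.49, 7.51 and 6.64 at 9 d. At 3 d nearly all of it came from CD163, a scavenger receptor for haemoglobin, with day means of 0.65, 134, 22.6 and 3.22 FPKM at 0, 3, 6 and 9 d. CD163 rose by 7.40 at 3 d (SE 0.36, limma adjusted p = 6.9e-08), and CD14, an LPS co-receptor with day means of 0.673 FPKM at 0 d and 2.40 at 3 d, was called higher too, as was CSF1R. In contrast, LAPTM5 and MRC1 of the same list fell by 2.32 and 1.64 at 3 d, and CD68 was not called. The part of these markers in the levels of the 8 genes was not tested.

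PTX3 (NCBI Gene 541148) had the largest ratio between day means among those of the 8 genes that were measured well above 0 on every day. Its libraries read 9.40, 11.1 and 11.5 FPKM at 0 d, 1254, 1269.8 and 1240.3 at 3 d, 1216, 1350.1 and 1336 at 6 d, then 126, 105 and 98.1 at 9 d. The libraries of 3 d and 6 d overlapped and did not differ beyond their spread, both stood above 9 d, and 9 d stood above 0 d. Unlike CXCL12, whose 6 d mean was 86.8 FPKM after 901 at 3 d, PTX3 kept its 3 d level at 6 d. The log2 differences from 0 d were 6.87 at 3 d, 6.92 at 6 d and 3.35 at 9 d (SE 0.10), and that from 6 d to 9 d was -3.57.

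Of 18 pentraxins and hyaluronan matrix partners of PTX3, 15 were found by name and 7 could be tested; VCAN, NPTXR and HAS3 occurred only in rows merged with a neighbouring gene and were not counted. NPTX1, a long pentraxin known from synapses, read 0.40, 0 and 1.68 FPKM at 0 d, 16.0, 13.9 and 14.1 at 3 d, 11.7, 13.4 and 12.9 at 6 d, then 3.27, 2.80 and 5.33 at 9 d. Libraries of 3 d stood above the rest, those of 6 d and 9 d above 0 d, and no day overlapped another. NPTX1 rose by 5.04 at 3 d (SE 0.79, limma adjusted p = 0.00038), by 4.84 at 6 d and by 3.07 at 9 d (adjusted p = 0.012), and in a fit of the 0 d and 9 d libraries alone the last adjusted p was 0.0688. Replicate 2 of 0 d was listed at 0, so the sizes of these differences depend on the 0.1 FPKM added before taking logarithms.

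HAS2, which makes hyaluronan, read 26.0, 23.5 and 23.7 FPKM at 0 d, 144, 122 and 136 at 3 d, 15.5, 21.7 and 15.8 at 6 d, then 43.1, 46.6 and 52.3 at 9 d. It was highest at 3 d and lowest at 6 d, without overlap. HAS2 rose by 2.45 at 3 d (SE 0.13, limma adjusted p = 1.5e-07), fell by 2.93 from 3 d to 6 d (adjusted p = 6.1e-08) and rose by 1.43 from 6 d to 9 d (adjusted p = 5.1e-05). HAS1, a rarer synthase of the same sugar, rose by 1.27 from 6 d to 9 d (limma adjusted p = 0.0013), a call lost with a pseudocount of 1.

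CD44, the cell surface receptor of hyaluronan and the most abundant gene of the list after HAS2, went the other way. It read 53.8, 53.5 and 58.8 FPKM at 0 d, 5.91, 6.30 and 7.16 at 3 d, 32.4, 34.4 and 35.5 at 6 d, then 46.4, 46.3 and 48.3 at 9 d. The 3 d libraries lay below all others. CD44 fell by 3.08 at 3 d (SE 0.08, limma adjusted p = 7.0e-10) and rose by 2.39 from 3 d to 6 d (adjusted p = 6.3e-09). ITIH5, a heavy chain that is attached to hyaluronan, fell by 1.65 at 3 d (limma adjusted p = 1.4e-05) and by 1.07 at 9 d (adjusted p = 0.00066); without replicate 2 of 9 d the latter fold change was -0.88, and it was also under the threshold with a pseudocount of 1 or after rescaling. TNFAIP6, the enzyme that attaches these chains and a binding partner of PTX3, was not called, with day means of 5.13, 7.30, 8.25 and 4.27 FPKM. Of the 7 genes, limma called NPTX1 and HAS2 higher and CD44 and ITIH5 lower at 3 d, NPTX1 higher at 6 d, and NPTX1 higher and ITIH5 lower at 9 d. It called CD44 and ITIH5 higher and HAS2 lower from 3 d to 6 d, and HAS2 and HAS1 higher from 6 d to 9 d. Their median log2 fold changes were 0.00, -0.48 and -0.05 at 3, 6 and 9 d against 0 d.

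NF-kB is the transcription factor family through which inflammatory signals switch on chemokine genes, and its own inhibitors are among its targets. Of 25 subunits, inhibitors and inflammatory targets, 24 were found by name and 19 could be tested. SOD2, a mitochondrial superoxide dismutase and the most abundant of them, read 38.4, 33.0 and 36.7 FPKM at 0 d, 491, 518 and 552 at 3 d, 61.1, 60.4 and 60.8 at 6 d, then 87.2, 94.6 and 105 at 9 d. The days did not overlap, with 3 d at the top and 0 d at the bottom. SOD2 rose by 3.85 at 3 d (SE 0.08, limma adjusted p = 2.4e-10) and fell by 3.09 from 3 d to 6 d (adjusted p = 1.7e-09).

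TNFAIP3, NFKBIA and NFKBIZ of the same list were also called higher at 3 d. TNFAIP3, a deubiquitinase, had day means of 4.20, 34.6, 5.49 and 6.65 FPKM at 0, 3, 6 and 9 d and rose by 3.02 at 3 d (SE 0.14, limma adjusted p = 4.2e-08). NFKBIA had day means of 1.53, 10.3, 2.66 and 2.14 FPKM and rose by 2.67 (limma adjusted p = 3.2e-08). NFKBIZ had 3.38, 14.1, 6.60 and 5.08 FPKM and rose by 2.03 (limma adjusted p = 3.9e-09). All 3 fell from 3 d to 6 d, with log2 fold changes of -2.63, -1.91 and -1.08, and for NFKBIZ that call was lost after rescaling (-0.9959) and with a pseudocount of 1 (-0.9916).

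Other genes of the list fell at 3 d. The log2 fold change was -2.12 for LIF, a cytokine of the IL6 family (limma adjusted p = 4.9e-06), -1.65 for the adhesion molecule ICAM1 (adjusted p = 2.0e-06) and -1.44 for the subunit RELB (adjusted p = 1.1e-05). With a pseudocount of 1 the calls of ICAM1, RELB and RELA were lost, and that of RELA also after rescaling. RELA read 14.8, 14.2 and 15.5 FPKM at 0 d and 5.09, 12.3 and 5.48 at 3 d, and its fall by 1.07 (limma adjusted p = 0.016) rested on single libraries, with an adjusted p of 0.0607 without replicate 1 and 0.0591 without replicate 3 of 3 d. NFKB2, the most abundant subunit, was not called, with day means of 86.0, 71.3, 55.2 and 68.8 FPKM.

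The cytokines IL1B, IL1A, TNF and IL6 were scarce. IL1B was listed at 0 in all libraries, and TNF had a mean of 0.0175 FPKM. IL1A was at 0 in the 0 d libraries and read 0.21, 0.09 and 0.12 FPKM at 9 d. IL6 had a mean of 0.119 FPKM, with 0.31 at 9 d. At 9 d, PTGS2, the inducible cyclooxygenase, read 15.3, 18.8 and 14.5 FPKM, above 1.74, 1.54 and 1.36 at 0 d. PTGS2 rose by 3.30 (SE 0.17, limma adjusted p = 5.3e-07) against 0 d and by 2.66 from 6 d to 9 d. Its call from 3 d to 6 d (log2 fold change 1.09) was lost without replicate 2 of 3 d (0.91) or replicate 3 of 6 d (0.98), and with a pseudocount of 1 (0.71). IRF1, a transcription factor of the interferon response, fell by 2.24 at 6 d against 0 d (limma adjusted p = 0.00031) and rose by 1.63 from 6 d to 9 d.

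Over the 19 genes, limma called as many higher as lower at 3 d against 0 d, namely 4. At 6 d it called 2 lower (IRF1 and ICAM1) and 0 higher, with 6 higher at an unadjusted p under 0.05. At 9 d it called 4 higher (PTGS2, SOD2, IL11 and IL6) and 0 lower, with 2 lower at an unadjusted p under 0.05. Between 3 d and 6 d it called 3 higher (LIF, TNFAIP2 and PTGS2) and 6 lower, among them IRF1 and TRAF1. From 6 d to 9 d it called 5 higher (PTGS2, IRF1, IL6, IL11 and BIRC3) and 0 lower, with 2 lower at an unadjusted p under 0.05. IL6 and IL11 had day means under 0.1 FPKM at 0 d and 6 d and passed the filter through other days. The calls of both genes are therefore no more than a description. With a pseudocount of 1 the calls of IL6, IL11 and BIRC3, and from 3 d to 6 d those of IRF1 and TRAF1, were lost. Against 0 d the list had median log2 fold changes of -0.44, -0.17 and 0.45 at 3, 6 and 9 d.

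Secreted chemokines are trimmed by proteases and held on heparan sulphate proteoglycans, the syndecans and glypicans. MMP2, a gelatinase that cleaves CXCL12 and CCL7, was the most abundant of 14 such genes, with 891, 902 and 942 FPKM at 0 d, 3173, 3677 and 3406 at 3 d, 2142, 2094 and 2049 at 6 d, then 2470.5, 2309.7 and 2388 at 9 d. Its libraries did not overlap between days. MMP2 rose by 1.90 at 3 d (SE 0.06, limma adjusted p = 1.8e-09) and by 1.39 at 9 d against 0 d, and it was called at 6 d as well. MMP14, which activates MMP2 on the cell surface, fell by 1.34 at 6 d (limma adjusted p = 2.0e-06).

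Several carriers of heparan sulphate went down where CXCL12 was at its peak. SDC1, the most abundant of them, had day means of 987, 389, 1349 and 2083 FPKM and fell by 1.31 at 3 d (limma adjusted p = 0.00026). GPC4 read 52.2, 52.8 and 52.9 FPKM at 0 d, 8.09, 6.71 and 6.00 at 3 d, 46.5, 43.5 and 43.8 at 6 d, then 50.0, 49.7 and 54.3 at 9 d, so that its 3 d libraries lay below all others. GPC4 fell by 2.92 at 3 d (SE 0.10, limma adjusted p = 4.1e-09) and rose by 2.68 from 3 d to 6 d. GPC1 fell by 1.27 at 3 d (limma adjusted p = 1.3e-06). SDC3 read 67.2, 62.2 and 66.6 FPKM at 0 d and 1.73, 7.51 and 2.07 at 3 d, and fell by 4.39 (SE 0.53, limma adjusted p = 5.8e-05). The other listed carriers, SDC2, SDC4, GPC3 and GPC6, were not called at 3 d. Their log2 fold changes against 0 d were 0.15, -0.16, -0.60 and -0.06.

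Of the 13 genes of this list tested, limma called MMP2 higher and 4 lower at 3 d. Those called at 6 d were MMP2 and SDC2 (higher) and SDC3 and MMP14 (lower). At 9 d they were GPC6, MMP2, SDC2 and SDC1, all higher, and 0 were lower, with 3 lower at an unadjusted p under 0.05. Between 3 d and 6 d it called 5 higher, all of them syndecans or glypicans, and 1 lower. From 6 d to 9 d it called GPC6. The call of SDC3 at 6 d was lost without any library of 0 d or without replicate 2 of 6 d (adjusted p from 0.0733 to 0.120), and after rescaling. That of SDC1 at 9 d was lost without replicate 2 of 0 d (log2 fold change 0.88), that of SDC2 from 3 d to 6 d without replicate 2 of 3 d (0.9975), and that of GPC6 from 6 d to 9 d without replicate 2 or 3 of either day (adjusted p from 0.0541 to 0.0716). Their medians of the log2 fold change were -0.16, -0.24 and -0.04 at 3, 6 and 9 d against 0 d.

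Across the 6 lists together, 114 of 122 genes were found by name and 63 were tested. At 3 d against 0 d, limma called 13 of the 63 higher (20.6%) and 15 lower (23.8%). The numbers were 5 (7.94%) and 10 (15.9%) at 6 d, and 12 (19.0%) and 3 (4.76%) at 9 d. Between 3 d and 6 d 15 rose and 15 fell (23.8% each). From 6 d to 9 d 15 rose and 0 fell, with 4 lower at an unadjusted p under 0.05. These counts hold genes with a day mean under 0.1 FPKM that passed the filter through their other days: the 5 trace ligands named above, CXCL2, CXCR4, CCR4, ACKR2, IL34, IL6, IL11 and DPP4. The counts are therefore a description. The shares of all mRNAs are those given with the first counts, and the lists were not compared with them by a test.

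Circular RNAs are a readout that the choice of the genes did not use, but they were sparse. Back-spliced reads per library numbered 5358 to 10729 in all, and 5 circular RNAs with 25 reads among them came from CSF1, CXCL12 and PTX3. The sole one with at least 5 reads, circRNA6981 of CSF1, spans 2 exons on the minus strand of chromosome 3, from 33495338 to 33495994 as the deposited table gives them. The build was taken to be ARS-UCD1.2 from the study's methods, while the submitters' notes name a mouse build, and whether the start counts from 0 or 1 is not given in the sources used here. This circular RNA had 0, 0 and 0 reads at 0 d, 0, 4 and 0 at 3 d, 0, 0 and 5 at 6 d, then 2, 4 and 3 at 9 d, so that 9 d was the day with reads in every library. Its edgeR adjusted p was 0.585 at 3 d, 0.646 at 6 d and 0.568 at 9 d against 0 d.

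Of 7 circular RNAs from these genes and the lists that could be tested, edgeR called 0 at 3 d, 0 at 6 d and 0 at 9 d, beside 0.813%, 0.530% and 0.566% of the 2828 circular RNAs tested. At an unadjusted p under 0.05 there were 0, 0 and 2, the latter being circRNA6981 and circRNA1762 of CD44, which had 1, 1 and 6 reads at 0 d and 0 in all libraries at 9 d. Leaving out replicate 3 of 0 d, which held most of these reads, left 6 tested and 0 at an unadjusted p under 0.05. DESeq2 had 0 of the 7 at an unadjusted p under 0.05 and called 0 of all 2828 in each comparison, so its 0 called among the 7 says nothing about them. No change in these circular RNAs was detected.

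The genes whose log2(FPKM + 0.1) was most like that of a member over the 12 libraries are given as a description, since the libraries fall into 4 day groups. Among 9628 mRNAs with a mean of at least 1 FPKM, NFKBIZ was closest to CXCL12 (Pearson r = 0.998), ahead of SULT1A1 and ADAMTSL4 (both 0.997). For CXCL14 these were ITM2B (0.991), ADAMTS4 (0.989) and NFATC2IP (0.987), for CSF1 MAOA (0.994), SERPINE2 (0.992) and ENPP1 (0.990), and for PTX3 COL4A1 (0.996), SFRP5 (0.990) and LGI3 (0.988). CXCL8 was followed by ETS2 (0.992), PLPP3 (0.987) and ISYNA1 (0.982), and CCL2 by FKBP11 (0.968), CRY2 (0.964) and MAF (0.954). CX3CL1 had TSPAN13 (0.963), SLC39A11 (0.959) and VKORC1L1 (0.957), and ACKR3 had PRKD3 (0.932), DENND6B (0.924) and TTC14 (0.924). Between the 8 genes themselves r was 0.975 for CXCL12 with CSF1, 0.926 for PTX3 with CSF1 and 0.854 for CXCL12 with PTX3, but 0.351 for CXCL12 with CXCL8 and -0.568 for CCL2 with CXCL8.

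Markers of other cell types were read from the same libraries. Stromal markers were the most abundant, with COL3A1 at a mean of 124900 FPKM and a summed level of 119300, 171700, 131800 and 219600 FPKM for the 10 genes at 0, 3, 6 and 9 d. These sums rest mainly on COL3A1 and DCN, and other genes of the list differed: COL1A1 was lowest at 3 d, with 941 FPKM after 3018 at 0 d, PDGFRA was highest at 3 d, and CD34 and ZNF423 were highest at 0 d. The preadipocyte marker DLK1 had a mean of 0.0367 FPKM and CD34 one of 0.198. Adipocyte markers summed to 10.6, 125, 48.1 and 47.5 FPKM over 8 of 10 genes, of which FABP4 had the highest mean over the 12 libraries; PPARG and PLIN1 occurred only in merged rows, and ADIPOQ had a mean of 0.513 FPKM. Not all of them followed FABP4, since LEP had its lowest day mean at 3 d (0.07 FPKM) and its highest at 9 d (20.5 FPKM).

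The summed levels of muscle and mural markers were highest at 0 d. The 10 muscle genes found of 11, with DES highest over the 12 libraries, summed to 881, 290.2, 403 and 317 FPKM. Their sums of 3 d and 9 d overlapped. DES, CKM and TNNC2 had their lowest day mean at 3 d. That of MYOD1, ACTA1, MYH3 and TNNT3 was at 6 d, and that of MYF5, MYOG and MYH8 at 9 d. MYH8 was highest at 6 d, with 2.63 FPKM beside 1.49 at 0 d. The other muscle genes were highest at 0 d, where MYOD1 had a day mean of 268 FPKM. The 7 mural markers, with ACTA2 highest over the 12 libraries, summed to 2557, 339, 1899 and 1317 FPKM. ACTA2 was far lower at 3 d, with a day mean of 26.8 FPKM after 1697 at 0 d. The mural markers were not uniform: MCAM was highest at 3 d, with 17.5 FPKM after 3.58 at 0 d, MYH11 was also highest at 3 d, and PDGFRB was about as high at 9 d as at 0 d. Endothelial markers, with VWF highest on average, summed to between 2.52 and 3.74 FPKM in every library. Lymphocyte markers, with CD79A highest on average and CD2 at 0 in all libraries, summed to between 0.38 and 3.77 FPKM. CD79A had day means of 0.243 FPKM at 0 d and 1.96 at 3 d, whereas CD3G had 0.427 at 0 d and 0 at 3 d. The part of these cell types in the levels of the 8 genes was not tested.

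**Figure D5:**
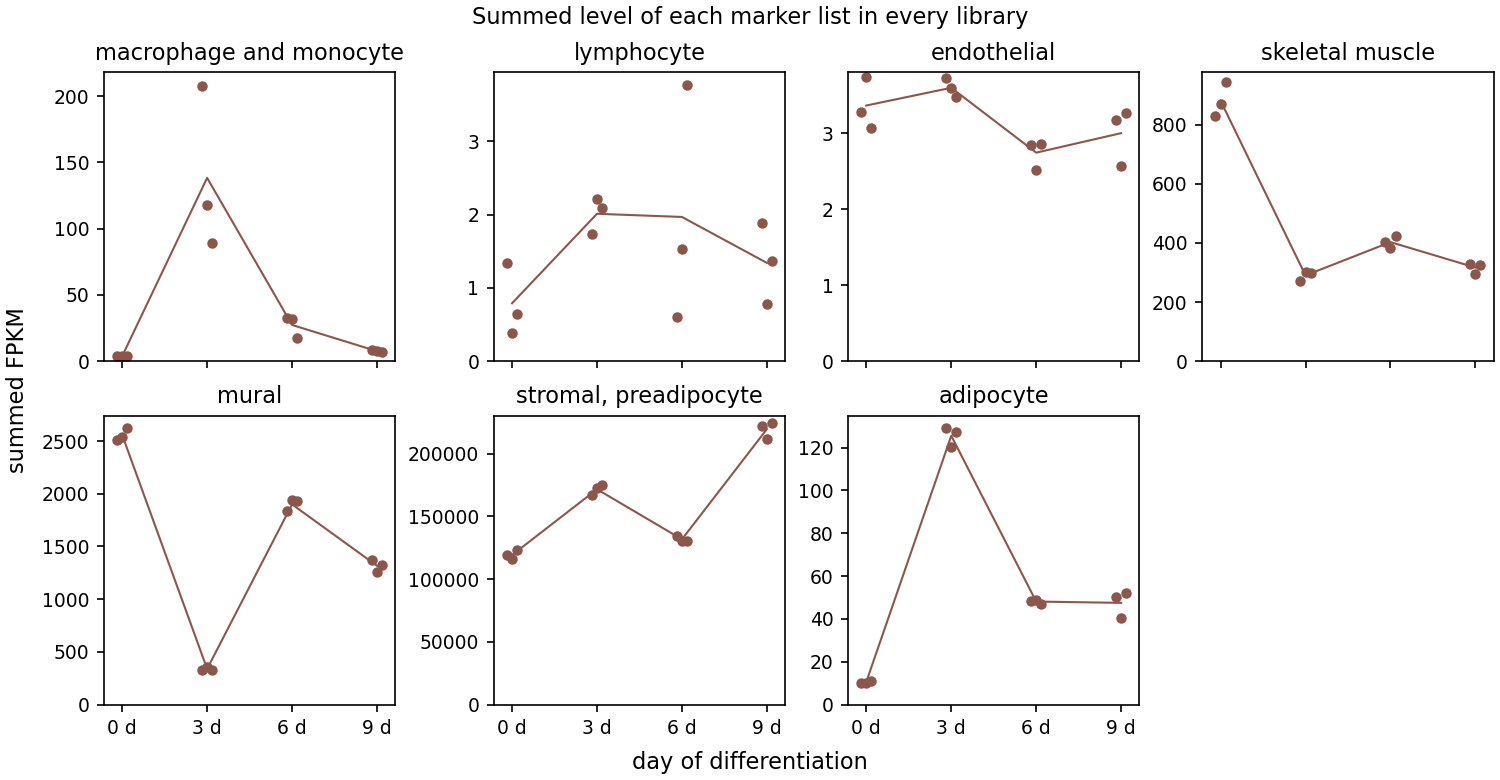
Summed FPKM of 7 lists of cell type markers in every library (points) against the day of differentiation, with lines through the day means; each panel has its own vertical scale from 0. The sums of macrophage and adipocyte markers were highest at 3 d, while that of mural markers was lowest at that day. The muscle sums of 3 d and 9 d overlapped.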

How the data were processed

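RNA was sequenced from bovine intramuscular preadipocytes in 12 libraries, 3 for each of 0, 3, 6 and 9 d, grouped by the day in their titles. The deposited mRNA values are FPKM; the authors trimmed reads with Trimmomatic, mapped them with Hisat2 and quantified transcripts on the bovine genome. The deposited circRNA values are a count of back-spliced reads, which the authors called with CIRCExplorer2 and CIRI. The submitters' processing notes name Bowtie 0.12.2, HISAT2 2.0 and StringTie 1.3.0. The labels describe poly(A) selection and the study's methods rRNA depletion. The deposited miRNA and lncRNA tables, and the normalized (SRPBM) columns of the circRNA table, were not used here.

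FPKM of mRNAs with a mean of at least 0.1 (15402) were tested in limma 3.58.1 (lmFit, then contrasts.fit, then eBayes, prior variance trended) after taking log2(FPKM + 0.1), in 1 fit of 12 libraries and 5 contrasts. Counts of circRNAs with at least 5 reads (2828, biological coefficient of variation 0.967) were tested with edgeR 4.0.16 (TMM, quasi-likelihood) in 3 contrasts. P-values were adjusted by Benjamini-Hochberg, and both fits were tested on simulated data. Alternatives were a pseudocount of 1 or 0.01, other filters, libraries rescaled by their median ratio, the 6 compared libraries alone, the replicate number as a block, DESeq2 1.42.0 and leaving out each library. R 4.3.3, Python 3.11.15, NumPy 2.4.6, pandas 2.3.3, SciPy 1.17.1 and Matplotlib 3.10.9 were used.

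The members and lists were chosen with earlier results of these data known. From each list the text names the most abundant gene and up to 4 called genes per comparison with the largest change. From each marker list it names the most abundant gene and those at 0 in all libraries, and for each member the 3 most similar mRNAs. Other genes were named after their values were seen. In the lists these were TNFAIP6, NFKB2, TRAF1, BIRC3, FLT3LG and the receptors, cytokines and members' pairs outside this rule. Among the markers they were LAPTM5, MRC1, CD14, CD68, DLK1, CD34, ADIPOQ, LEP, DCN, COL1A1, PDGFRA, ZNF423, MCAM, MYH11, PDGFRB and CD3G. The muscle genes other than DES were also named in this way. Gene symbols are those of the table, and Gene IDs and neighbours come from RefSeq on ARS-UCD2.0. Which other receptors were at 0 is not reported here.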

Additional observations from a re-analysis of the deposited data

How the results depend on the processing

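With a pseudocount of 1, the number of listed genes called was 18 at 3 d and 8 at 9 d against 0 d, 17 from 3 d to 6 d and 7 from 6 d to 9 d, in place of 28, 15, 30 and 15. With a mean of at least 1 FPKM it was 17 at 3 d and 9 at 9 d against 0 d and 9 from 6 d to 9 d, since 37 listed genes were then tested in place of 63. The other 104 of 111 counts stayed within 1.5 times the reported number. Among these were the circular RNA counts, which were 0 in every setting and so say little about stability. With the replicate block the counts were 28, 14, 15, 30 and 15 of 63, and 0, 0 and 0 circular RNAs; the block ended the call of SDC3 at 6 d (limma adjusted p = 0.0672). Deviations of same-numbered libraries from their day means had r from -0.0981 to 0.112 over 18 pairs. For the 36 pairs with different numbers r ran from -0.1895 to 0.1829. With day means of only 3 libraries, this does not decide whether libraries of the same number share a culture or animal. Leaving out 1 library at a time gave, against 0 d, 24 to 28 listed genes (3 d), 13 to 17 (6 d) and 13 to 16 (9 d), 30 to 31 from 3 d to 6 d and 14 to 15 from 6 d to 9 d, and 0 circular RNAs. Over all alternatives, 88 of 1299 values of called listed genes fell under a threshold and 0 reversed. Of the 88, 44 came from the pseudocount of 1. For the 8 genes, 25 of 40 changes had an absolute log2 fold change over 1. The number was 18 with a pseudocount of 1, 28 with 0.01 and 27 after rescaling.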
